A study of Mus musculus with 14 samples.

Results

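The Peg13 domain is an imprinted stretch of mouse chromosome 15 that holds the genes Kcnk9, Trappc9, Peg13, Chrac1 and Ago2. Its H3K27me3 was described here over every peak on chromosome 15 that lay within 5 kb of a RefSeq gene body of these 5 genes, which gave 15 of the 74458 peaks in the deposited table. The domain was chosen by the measured loss of H3K27me3 in the Hoxa deletion, that is by the levels and log2 fold changes of that contrast. Values for that deletion are therefore a description without a test. The comparison of the Wnt6 with the Hmx1 deletion was not used in the choice and was tested. The libraries of both were the reference for the loss, however, so the choice may favour peaks at which they agree.

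H3K27me3 was profiled by Cut&Tag, in which the transposase Tn5 is directed by an antibody to chromatin that carries the mark and inserts sequencing adapters there. The cells were mouse embryonic stem cells (mESCs) grown with leukaemia inhibitory factor on CD1 feeder cells. They were edited by CRISPR-Cas9 from G4 mESCs, an F1 hybrid line of 129/Sv and C57BL/6 background. The study describes homozygous deletions of these loci, and also mESCs with a heterozygous Wnt6 deletion. The titles of the libraries do not give the zygosity. The libraries came from cells with a deletion of the Hoxa cluster (3 libraries), of the Wnt6 locus (2 libraries) or of the Hmx1 locus (2 libraries). For the Wnt6 and Hmx1 deletions these are fewer libraries than the replicates that the study names. The labels do not name the clones, and a difference between deletions cannot be told apart from one between clones. The labels do not say whether replicates were separate cultures, and p-values measure only the spread between these libraries. No unedited cells were in the table, and 7 control libraries made with IgG were not analysed here. Each deletion served as the reference for the others.

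Imprinted genes are expressed from the allele of a single parent. Usually they are controlled by a differentially methylated region, at which DNA methylation was set in the germ line of the mother or the father. At this domain the controlling region lies at the promoter of Peg13, a long noncoding RNA that is transcribed from the paternal allele within an intron of Trappc9. The DNA there is methylated on the maternal allele, and the unmethylated paternal allele binds CTCF. Trappc9 encodes a subunit of a vesicle tethering complex, Kcnk9 a potassium leak channel of neurons, Chrac1 a histone-fold subunit of a chromatin remodelling complex and Ago2 the Argonaute protein that cleaves RNAs paired to small RNAs. These genes are known for expression from the maternal allele in brain. H3K27me3 is deposited by Polycomb repressive complex 2 (PRC2), mostly at CpG-rich promoters of silent genes. At imprinted control regions it is usually found on the allele without DNA methylation.

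The 7 library totals ranged from 6016500 to 36563541 counts, and the median peak held between 23 and 148 counts. Levels are given in CPM, in which each count is divided by its library size after adjustment by trimmed mean of M-values (TMM) factors, which lay between 0.973 and 1.05. Of 8 pluripotency genes, 5 overlapped a peak, with a median summed level of 2.34 CPM over the 8. All 8 silent developmental genes checked overlapped peaks, with a median of 260 CPM. Nanog, Tdgf1 and Dppa5a had no peak, whereas Esrrb held 242 CPM over 21 peaks. Of 6 genes that are active in feeder fibroblasts, 5 overlapped a peak, and the summed level of this list was 588 to 599 CPM in the Hoxa, 565 to 643 CPM in the Wnt6 and 618 to 640 CPM in the Hmx1 libraries. The summed level of the pluripotency list was 293 to 309 CPM in the Hoxa libraries. It was 254 to 263 CPM in the Wnt6 and 274 CPM in the Hmx1 libraries. All Hoxa libraries were thus above the others, an order that 9.09% of all tested single peaks showed. Most of this sum was Esrrb, with 218 to 258 CPM per library, and Klf4 held 22.3 to 45.1 CPM. None of the other genes on this list exceeded 4.21 CPM in any library. The part of either list in the results was not tested. The stretch missing from the libraries of each deletion lay over the gene named in its label.

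Of the 15 peaks, 6 belonged to Kcnk9, 3 to Trappc9 outside Peg13, 2 to Peg13, 1 to Chrac1 and 3 to Ago2. They spanned 683 kb (mm10), and all 15 passed the filter on low counts. The Peg13 peaks also lie inside the body of Trappc9 and are counted here under Peg13. The gene bodies, from RefSeq on GRCm38.p6, run from 72501873 to 72548614 for Kcnk9, from 72589620 to 73061238 for Trappc9, from 72805602 to 72810324 for Peg13, from 73090412 to 73094075 for Chrac1 and from 73101625 to 73184947 for Ago2.

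Nearly all H3K27me3 of Peg13 was missing from the Hoxa deletion. Summed over both Peg13 peaks, the level was 0.653 ± 0.327 CPM (SD, n = 3) with the Hoxa deletion, against 11.1 ± 0.580 CPM (SD, n = 2) with the Wnt6 deletion and 12.0 ± 0.284 CPM (SD, n = 2) with the Hmx1 deletion. The mean of the Hoxa libraries was thus 5.66% of that of the other libraries, a 17.7-fold difference. The lowest of the other libraries was still 10.4 times the highest Hoxa library. In counts, 32 were left in the 3 Hoxa libraries together and 916 were found in the 4 others, which puts the remainder at 5.52% with a 95% exact interval of 3.75% to 7.85%. This interval and those below cover counting error only. The table holds no allele information, so fewer cells or alleles with the mark and less mark on each cannot be told apart.

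The leading Peg13 peak, that with the most counts outside the Hoxa deletion, lies at chr15:72809930-72810752 and extends 428 bp past the end of Peg13 with the higher coordinate. It held 0.235, 0.229 and 0.902 CPM in Hoxa replicates 1 to 3, 8.13 and 8.36 CPM in Wnt6 replicates 1 and 2, and 8.28 and 8.70 CPM in Hmx1 replicates 1 and 2. The groups did not overlap, and the 4 libraries without the Hoxa deletion lay close together. Against the other deletions pooled, the log2 fold change was -4.22 (standard error 0.285). Against each of the other deletions alone it was -4.20 for Wnt6 and -4.24 for Hmx1. Replicate 3 of the Hoxa deletion kept the most signal, 14 counts against 2 and 6 in replicates 1 and 2. Its exact 95% Poisson interval, 0.493 to 1.51 CPM, narrowly overlapped that of replicate 2, from 0.0841 to 0.499 CPM. Without replicate 3 the log2 fold change was -5.15, and the level of both peaks together was 4.02% of that in the other deletions.

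The narrower Peg13 peak, at chr15:72809218-72809605, lies 325 bp away within the gene. Its level was 0.235, 0.229 and 0.129 CPM in Hoxa replicates 1 to 3, 2.57 and 3.16 CPM in the Wnt6 libraries, and 3.89 and 3.07 CPM in the Hmx1 libraries. Here the Hoxa libraries were close together and all far below the rest, and the log2 fold change was -3.93 (standard error 0.412). The narrower peak took 31.2% of the Peg13 counts in the Hoxa deletion (10 of 32, exact 95% interval 16.1% to 50.0%) and 27% in the other deletions (247 of 916, 24.1% to 30.0%). By library, the narrower peak had 2 of 4, 6 of 12 and 2 of 16 counts in Hoxa replicates 1 to 3, so that the pooled share rests to a large part on replicate 3. Without that replicate the log2 fold change was -3.72 at the narrower peak, beside the -5.15 of the leading peak.

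**Figure D1:**
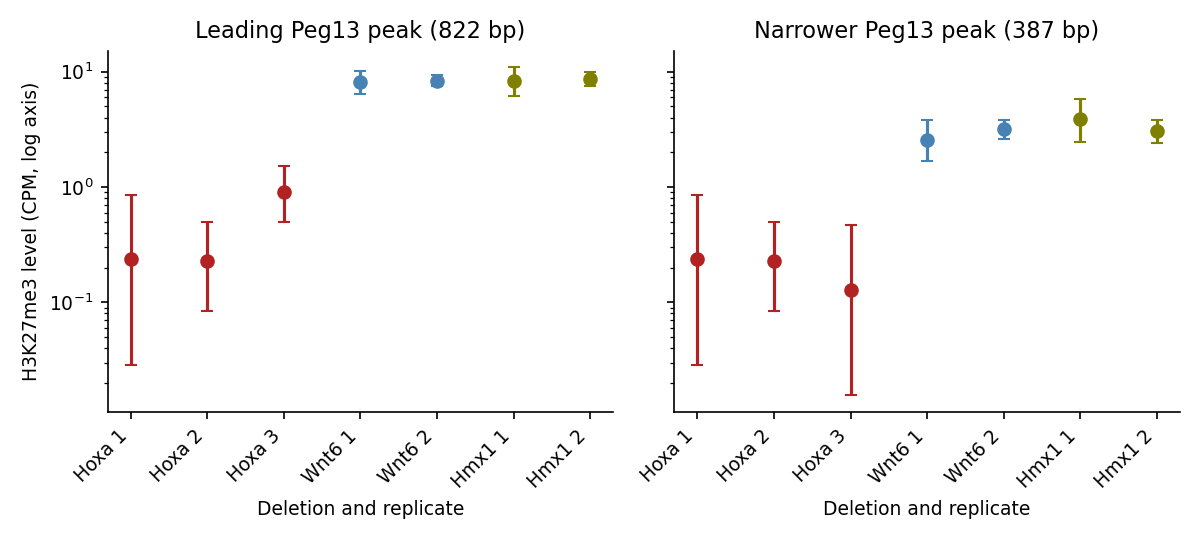
H3K27me3 level in CPM (log axis) of the leading and the narrower Peg13 peak in each of the 7 libraries, with exact 95% Poisson intervals of the counts as bars. The Hoxa libraries lie between 0.129 and 0.902 CPM and the libraries of the other deletions between 2.57 and 8.70 CPM.

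Both Peg13 peaks, and no other of the 15, met the rule used over the whole table for a call in the Hoxa deletion, an absolute log2 fold change over 1 with a Benjamini-Hochberg adjusted p under 0.05 in edgeR. Over all 74441 tested peaks, 0.983% were called lower and 0.566% higher by that rule. Outside the deleted stretches and chromosome 8, which held 533 of the 686 lower calls that lay outside the stretches, 0.222% were called lower. Among 2952 tested peaks of chromosome 15, 5 were called lower, and the Peg13 peaks had the lowest fold changes of that chromosome. Outside the deleted stretches of all chromosomes the leading peak ranked 4 and the narrower peak 6 from the lowest log2 fold change. Only peaks at Mest (2 peaks) and Zfp787 (1 peak) had a lower value than the leading peak. Since the domain was chosen for its loss in this contrast, the Peg13 calls and ranks are a description and not a test.

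The level that remained at Peg13 was among the lowest in the table. Per kb of peak, the leading peak held 10.2 CPM outside the Hoxa deletion, which was higher than 64.0% of all peaks, and 0.554 CPM in the Hoxa deletion. The narrower peak went from 8.20 to 0.511 CPM per kb. Outside the deleted Hoxa stretch, 4 and 2 of 74412 peaks had a lower level per kb in the Hoxa libraries than the leading and the narrower peak, respectively. In the deleted Hoxa stretch itself, where the sequence is absent, these libraries held 0.0460 to 0.0766 CPM per kb. Over both Peg13 peaks they held 0.389, 0.379 and 0.853 CPM per kb, which was above the deleted Hoxa stretch in each Hoxa library. The deleted Hmx1 stretch held 0.145 to 0.233 CPM per kb in the Hmx1 libraries. The deleted Wnt6 stretch held 0.304 to 0.331 CPM per kb in the Wnt6 libraries, close to the Peg13 level of Hoxa replicates 1 and 2. Whether sequence is missing at Peg13 was not tested. As a share of the CPM of all 15 peaks, Peg13 made up 0.145%, 0.150% and 0.343% in Hoxa replicates 1 to 3 and between 3.12% and 3.76% in the libraries of the other deletions. The total of the 15 peaks was 325, 306 and 301 CPM in the Hoxa libraries, 343 and 306 CPM in the Wnt6 libraries, and 345 and 340 CPM in the Hmx1 libraries. Most of it was Kcnk9, and the Hoxa libraries were lower than 3 of the 4 others.

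Peg13 stood apart from its neighbours in the domain. Per kb of peak, the order outside the Hoxa deletion was led by Kcnk9, at 40.7 ± 3.83 CPM (SD, n = 2) with the Wnt6 and 43.5 ± 0.299 CPM (SD, n = 2) with the Hmx1 deletion. Peg13 followed with 9.19 ± 0.480 and 9.90 ± 0.235 CPM per kb, and Chrac1 with 8.77 ± 0.658 and 9.89 ± 2.54 CPM per kb. These neighbours in the order did not differ beyond their spread. Trappc9 outside Peg13 came next with 7.39 ± 0.695 and 6.80 ± 0.0429 CPM per kb, and Ago2 last with 5.40 ± 0.312 and 3.74 ± 0.447 CPM per kb. In the Hoxa deletion Kcnk9 was again highest with 40.5 ± 1.98 CPM per kb (SD, n = 3), before Chrac1 with 8.09 ± 1.11, Trappc9 with 6.95 ± 1.17 and Ago2 with 4.62 ± 0.119 CPM per kb. Peg13 was now the lowest, at 0.540 ± 0.271 CPM per kb. Chrac1 and Trappc9 did not differ beyond their spread there.

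**Figure D2:**
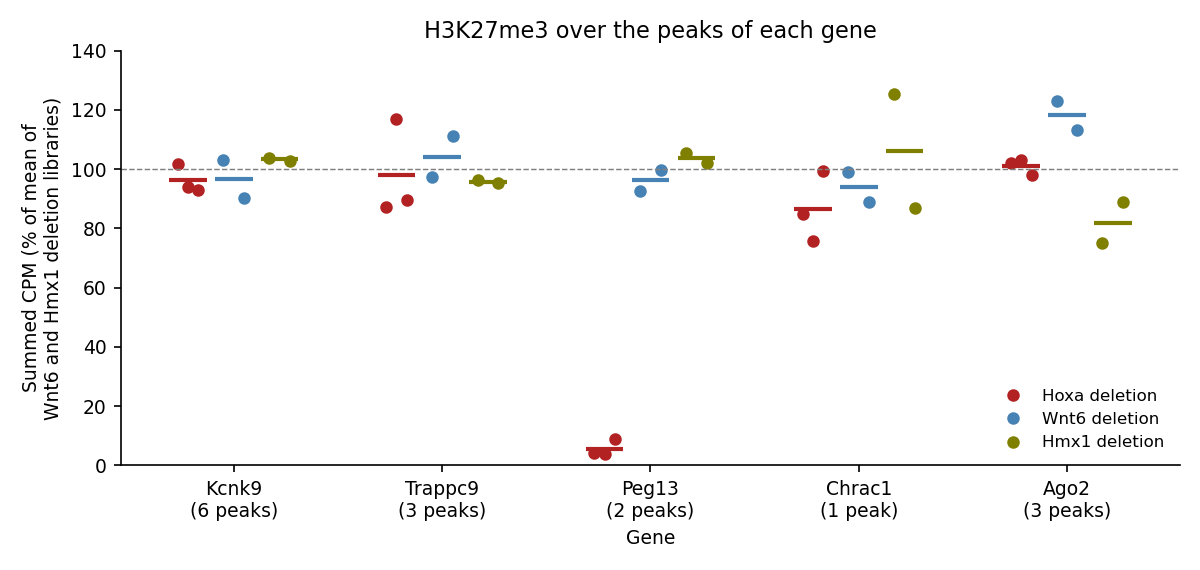
Summed CPM over the peaks of each gene, as a percentage of the mean of the 4 libraries of the Wnt6 and Hmx1 deletions (dashed line). Points are libraries, short lines are group means, and the Hoxa libraries lie at 3.97% to 8.93% for Peg13 but at 75.8% to 117% for the other 4 genes.

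Kcnk9 carried most of the H3K27me3 of the domain. Its leading peak, at chr15:72545183-72549696, is 4513 bp wide and covers the end of the gene with the higher coordinate. The level was 289, 265 and 262 CPM in Hoxa replicates 1 to 3, 285 and 249 CPM in the Wnt6 libraries, and 289 and 287 CPM in the Hmx1 libraries. The groups overlapped, and the log2 fold change in the Hoxa deletion was -0.03 (standard error 0.0700). This peak took between 81.4% and 89.0% of the CPM of the 15 peaks in each library, and it lies 260 kb from the leading Peg13 peak. The Polycomb mark at the strongest peak of the domain was thus present in the same libraries in which that of Peg13 was missing.

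The other 5 Kcnk9 peaks are weak and lie within the gene body, between 72504665 and 72531615. Their sum was 13.2, 15.1 and 14.8 CPM in the Hoxa libraries, 22.1 and 19.2 CPM in the Wnt6 libraries, and 19.6 and 18.5 CPM in the Hmx1 libraries. The Hoxa libraries lay below all others, at 72.3% of their mean. This sum was formed after the values were seen. Each of the 5 peaks had a negative log2 fold change, from -0.81 to -0.13, and none was called. The value of -0.13, at 72516906 to 72517286, was 0.01 without Hoxa replicate 1. The lowest of these fold changes, at 72504665 to 72505028, came with 0.588, 1.72 and 1.16 CPM in the Hoxa libraries, 3.19 and 2.17 CPM in the Wnt6 libraries, and 2.70 and 1.46 CPM in the Hmx1 libraries. Hoxa replicate 2 lay above Hmx1 replicate 2 there, and the value in Hoxa replicate 1 rests on 5 counts. Without Hoxa replicate 2 the log2 fold change of this peak was -1.26, and with all libraries downsampled to the smallest it was -1.31, where it was called lower together with the Peg13 peaks. At 72512220 to 72512937 the levels were 3.64, 2.94 and 2.64 CPM in the Hoxa libraries, 3.71 and 4.18 CPM in the Wnt6 libraries, and 4.06 and 4.37 CPM in the Hmx1 libraries. The gap between the lowest Wnt6 and the highest Hoxa library was small against the spread among the Hoxa libraries. This peak and that at 72529557 to 72530037 had every Hoxa library below every other library, as had both Peg13 peaks, while 9.19% of all tested peaks, and 5.53% of those outside the deleted stretches and chromosome 8, showed that order. The 12 weaker members outside Peg13 had mean levels from 1.05 to 7.16 CPM and a median log2 fold change of -0.21. Over the 49713 tested peaks of all chromosomes in that range of levels the median was -0.02. The quartiles of these single peaks were -0.27 and 0.23.

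Outside Peg13, Trappc9 had 3 peaks, all toward the end that faces Chrac1. Summed, they held 12.6, 16.9 and 12.9 CPM in the Hoxa libraries, 14.0 and 16.0 CPM in the Wnt6 libraries, and 13.9 and 13.7 CPM in the Hmx1 libraries. The Hoxa libraries spanned the range of the others. The other peaks, at 73021434 to 73022367 and 73023043 to 73023384, had log2 fold changes of 0.07 (standard error 0.198) and -0.48 (standard error 0.252). The strongest, at chr15:73060604-73061360 over the end of the gene with the higher coordinate, held 7.29, 7.95 and 7.28 CPM in the Hoxa libraries, 7.72 and 7.26 CPM in the Wnt6 libraries, and 6.08 and 6.53 CPM in the Hmx1 libraries. All Hoxa libraries were above both Hmx1 libraries but overlapped the Wnt6 libraries, and the log2 fold change was 0.12 (standard error 0.158), with 0.02 against Wnt6 alone and 0.24 against Hmx1 alone. It is described although the rule for naming peaks gave the leading Peg13 peak for Trappc9 too.

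At Chrac1 the single peak, at chr15:73090360-73090895 over the end of the gene with the lower coordinate, held 4.23, 3.78 and 4.96 CPM in the Hoxa libraries, 4.94 and 4.44 CPM in the Wnt6 libraries, and 6.25 and 4.33 CPM in the Hmx1 libraries. The groups overlapped, and the log2 fold change was -0.16 (standard error 0.196).

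Ago2 had 3 weak peaks at its end with the higher coordinate. The leading one, at chr15:73185055-73185450, held 2.35, 2.03 and 1.87 CPM in the Hoxa libraries, 2.88 and 2.40 CPM in the Wnt6 libraries, and 2.70 and 2.20 CPM in the Hmx1 libraries. The groups overlapped here as well, with a log2 fold change of -0.27 (standard error 0.266). The weakest of the domain, at 73184573 to 73184855, had a log2 fold change of 0.64 (standard error 0.414). Against Wnt6 alone the value was 0.29, and against Hmx1 alone 1.2. It had 0 counts in replicate 1 of the Hmx1 deletion, the smallest library, which allows a level of up to 0.507 CPM.

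Along the chromosome, the 2 Peg13 peaks were isolated. The next peak lay 251 kb away on the Kcnk9 side and 211 kb away on the Chrac1 side, so that the table does not show how far a loss around Peg13 reached in the sequence between. Over the 13 peaks other than Peg13, the log2 fold change in the Hoxa deletion ranged from -0.81 to 0.64, with a median of -0.16 against 0.03 over chromosome 15 and -0.01 over all tested peaks. Of these, 10 were negative and 3 positive. At the edge of the 5 kb window, the outermost member lay 1.86 kb from Ago2, with 1.74 ± 0.411 CPM (SD, n = 3) with the Hoxa deletion and 1.86 ± 0.581 CPM (SD, n = 4) with the others. The nearest peak left out lay 6.18 kb from Trappc9, with 3.08 ± 0.757 and 4.10 ± 0.511 CPM. Another, 8.99 kb from Kcnk9, had 0.723 ± 0.378 and 1.15 ± 0.769 CPM.

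**Figure D3:**
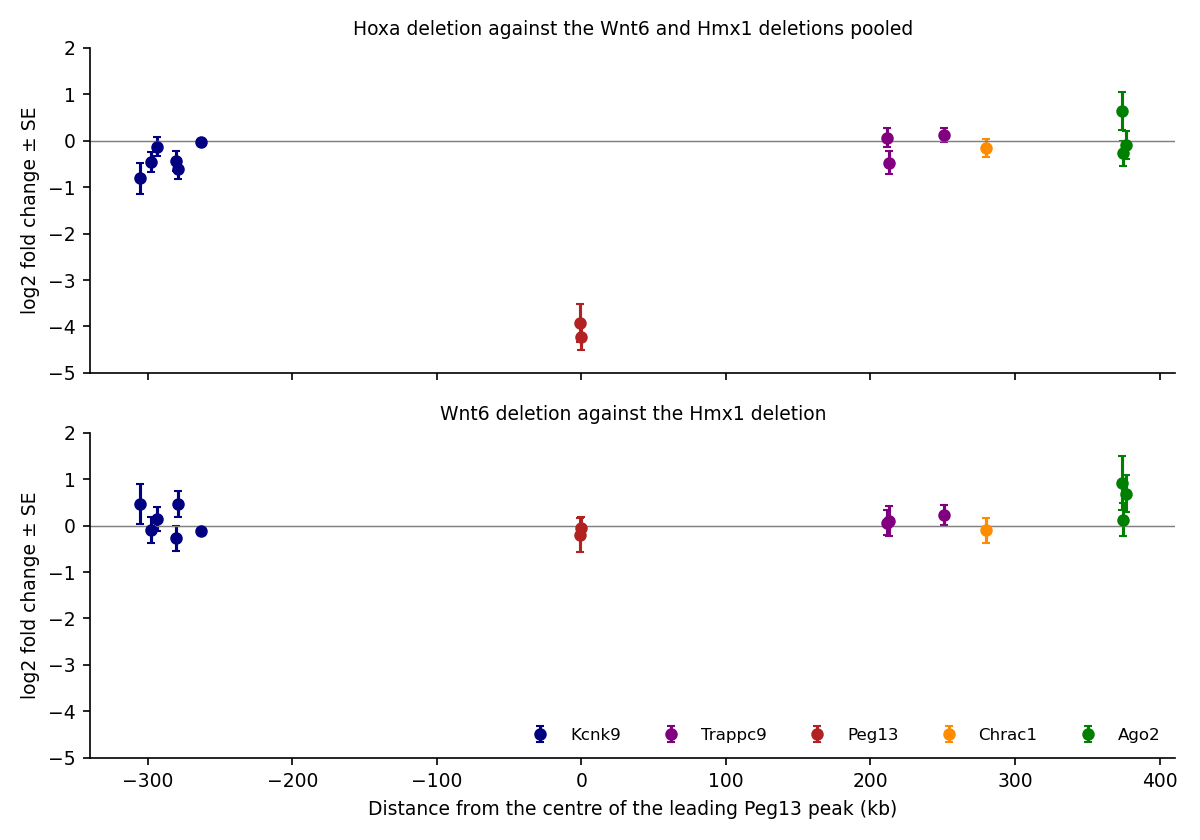
log2 fold change with its standard error for the 15 peaks, against the distance in kb from the centre of the leading Peg13 peak, for the Hoxa deletion against the others (top) and the Wnt6 against the Hmx1 deletion (bottom). In the top panel both Peg13 peaks lie at -3.93 and -4.22 while the other 13 lie between -0.81 and 0.64, and in the bottom panel all 15 lie between -0.28 and 0.91.

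The choice of the domain did not use the comparison of Wnt6 with Hmx1, but their libraries were the reference for the loss. No difference between these deletions was called at any of the 15 peaks by edgeR, and none had an unadjusted p under 0.05. DESeq2 called none either. Over all tested peaks 0.0887% were called, of which 45 lay inside the deleted stretches and 21 outside, and 5.66% had an unadjusted p under 0.05. The libraries of the groups did not overlap at 5 of the 15 peaks, none of them at Peg13, an order found at 35.8% of all tested peaks. At the leading Peg13 peak the log2 fold change of Wnt6 over Hmx1 was -0.05, with a 95% interval from -0.53 to 0.43 (edgeR adjusted p = 0.996). At the narrower Peg13 peak it was -0.20, with an interval from -0.92 to 0.52 (edgeR adjusted p = 0.981). Differences inside these intervals could not be told from the spread between libraries. With all libraries downsampled to the smallest, the value at the leading peak was -0.42 (edgeR adjusted p = 0.838).

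At the leading Kcnk9 peak the same comparison gave -0.11, with an interval from -0.30 to 0.07, the narrowest of the domain (edgeR adjusted p = 0.941). The smallest p of the domain was at the outermost Ago2 peak, 73186807 to 73187266, with 0.68 and an interval from -0.12 to 1.48 (edgeR adjusted p = 0.907). All 3 Ago2 peaks had more signal in the Wnt6 deletion, and their sum was 6.13 ± 0.355 CPM (SD, n = 2) there and 4.25 ± 0.507 CPM (SD, n = 2) with the Hmx1 deletion. Without a call at any Ago2 peak this difference was not established. The median over the 15 peaks was 0.11, with 9 positive and 6 negative values, against 0.01 over all tested peaks.

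**Figure D4:**
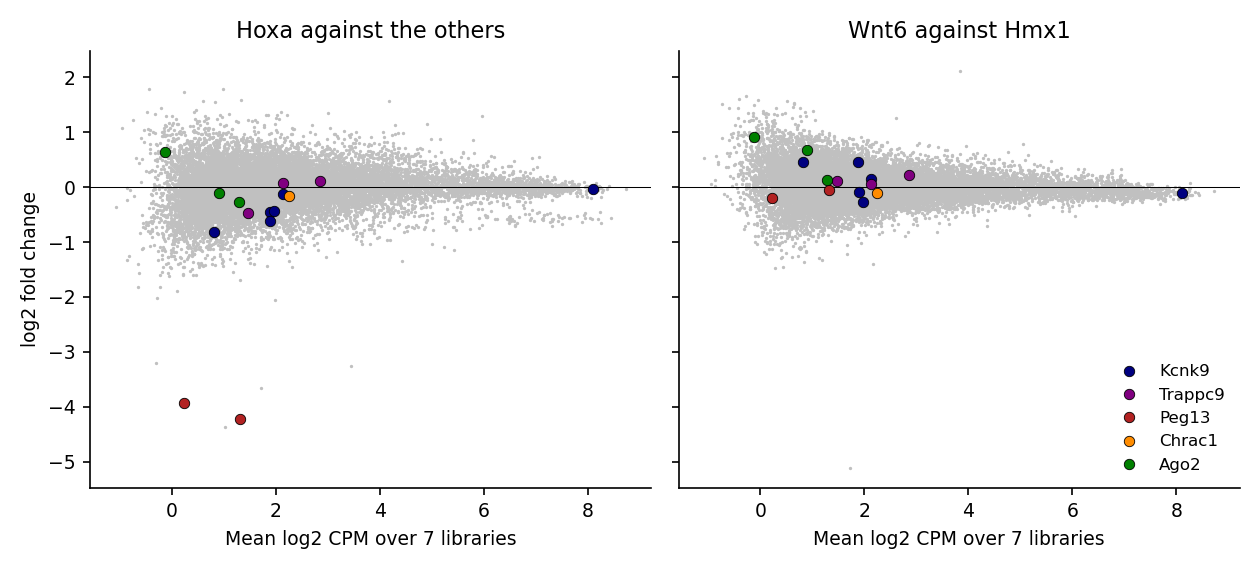
log2 fold change against mean log2 CPM over the 7 libraries for the 15 peaks of the domain (coloured by gene) and 15000 randomly drawn tested peaks outside the deleted stretches (grey), for the Hoxa deletion against the others (left) and the Wnt6 against the Hmx1 deletion (right). The Peg13 peaks lie below the grey cloud on the left, at -3.93 and -4.22, and within it on the right, at -0.20 and -0.05.

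The peaks with the pattern most like that of the leading Peg13 peak were sought among 30121 peaks outside the domain with at least 5 CPM in the Wnt6 and Hmx1 libraries. Likeness was the root mean square difference of log2 CPM over 7 libraries, each peak centred on its own mean. The nearest was a peak at Mest, the gene of a hydrolase-like protein expressed from the paternal allele, on chromosome 6 at 30737972 to 30738351, with a difference of 0.457. Its level was 0.323 ± 0.0828 CPM (SD, n = 3) with the Hoxa deletion, 5.51 ± 0.0680 CPM (SD, n = 2) with the Wnt6 deletion and 7.62 ± 1.65 CPM (SD, n = 2) with the Hmx1 deletion. Next came a peak in Zfp787, a zinc finger gene on chromosome 7, at 6131781 to 6133471 with 0.593. It was followed by a pair of peaks at H19, a noncoding RNA expressed from the maternal allele, at 142577642 to 142578872 and 142580077 to 142580687 of chromosome 7, with 0.657 and 0.752. Another Mest peak, at 30732605 to 30733663, closed the list with 0.839. Pearson's r with the leading Peg13 peak lay between 0.934 and 0.977 for these 5. Since they were chosen for likeness, these values are a description only. Mest shares chromosome 6 with the deleted Hoxa stretch, at 52163046 to 52274461, whereas Peg13, Zfp787 and H19 lie on other chromosomes. The narrower Peg13 peak, left out of the search, had a difference of 0.745.

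**Figure D5:**
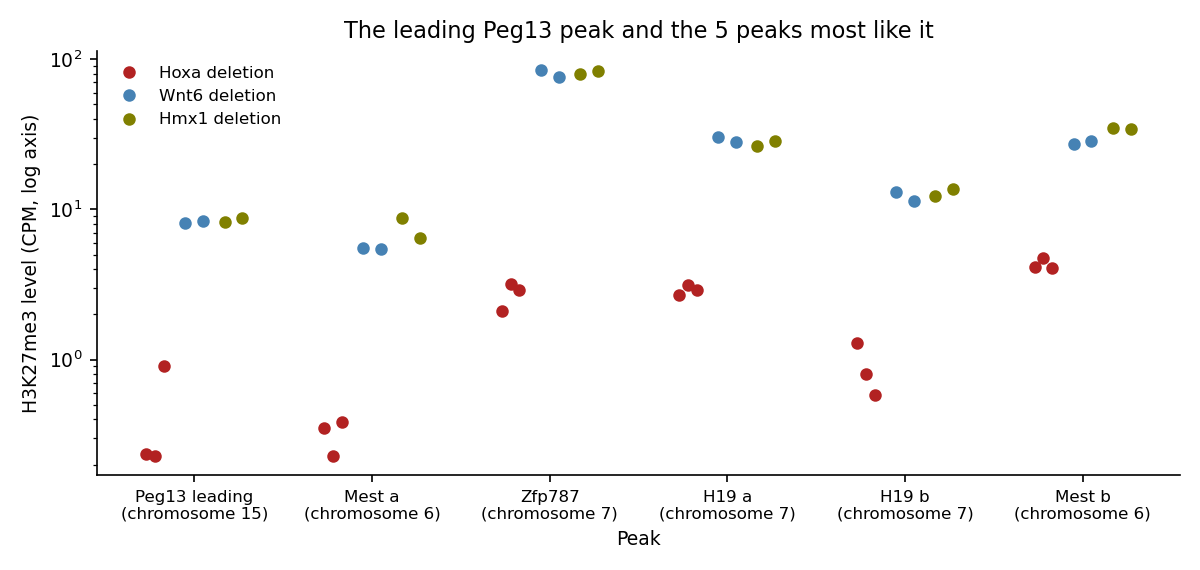
H3K27me3 level in CPM (log axis) of the leading Peg13 peak and of the 5 peaks elsewhere with the most similar pattern over the 7 libraries, ordered by likeness, where a and b tell peaks of one gene apart. Each point is a library, and at each peak the 3 Hoxa libraries lie below the 4 others, an order that the choice by likeness favours.

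A list of 21 genes at other germline imprinted regions, chosen with earlier results of these data known, was described in the same way. Of these, 20 had tested peaks, 97 in all. In the Hoxa deletion 7 of the 97 peaks were called lower, which is 7.22% against the 0.983% over all tested peaks, and 2 were called higher, where 0.566% of all tested peaks were. The lower calls were 4 of 4 peaks at Mest, with a median log2 fold change of -4.19, and 3 of 4 at H19, with a median of -2.46. Those called higher lay at Kcnq1ot1 and Nap1l5. The 18 other genes had no lower call, among them the paternally expressed Peg3 (median -0.15), Snrpn (median -0.16) and Plagl1 (median 0.37). Slc38a4, the listed gene that shares chromosome 15 with Peg13, had 1 peak, with a log2 fold change of 0.52. Mest, Peg10 and Nap1l5 lie on chromosome 6, which also holds the deleted Hoxa stretch. The median over the 97 peaks was -0.03, and the medians of single genes ran from -4.19 at Mest to 1.43 at Nap1l5. Between the Wnt6 and Hmx1 deletions 1 of the 97 peaks was called, at Nap1l5, and 8 had an unadjusted p under 0.05, beside 0.0887% and 5.66% of all tested peaks.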

How the data were processed

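The authors deposited raw counts over 1 shared list of H3K27me3 peaks, without normalization, for 7 libraries. Bowtie2, Trimmomatic, SAMtools, Picard, MACS2, deepTools and build mm10 are named in the submitters' processing notes, without roles or versions. How the list was made from the libraries, and whether reads or fragments were counted, is not given in the sources used here. Peaks called mainly in some libraries would favour regions strong in them. Start positions are printed as deposited.

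Columns were matched to libraries by title. Peaks were assigned to genes by RefSeq gene bodies (GRCm38.p6), a table without strand and exons. None of the 5 genes matched an entry of the RefSeq promoter table, so no sequence is printed and the planned motif count was not made. In R 4.3.3, peaks were filtered with filterByExpr (17 removed), scaled by TMM and fitted over all peaks with glmQLFit and glmQLFTest in edgeR 4.0.16, for the Hoxa deletion against the others pooled, and for Wnt6 against Hmx1 with a term for each genotype. DESeq2 1.42.0 was an alternative. Standard errors derive from the F statistic, and a prior count of 2 was added before taking log2 CPM. A deleted stretch was the longest run of peaks under 10% of the level in the other deletions. Plots used matplotlib 3.10.9. In simulated counts over 74458 peaks, 200 peaks with a mean count of at least 10 were changed by 2 on the log2 scale. Of these, edgeR recovered 99.0% for the Hoxa and 97.0% for the Wnt6 against Hmx1 comparison, with 1 and 8 false calls. The dispersion was set to 0.02 for every peak and not estimated from the data, so these shares do not apply to any single peak.

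The 5 genes and the gene lists were chosen with earlier results of these data known. Named were the leading peak of each gene (highest mean CPM in the Wnt6 and Hmx1 libraries), every peak within 5 kb of Peg13, and the 5 peaks elsewhere most like the leading Peg13 peak. The sum of the weaker Kcnk9 peaks, the per-peak alternatives and the percentages outside the stretches and chromosome 8 were added after seeing the data.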

Additional observations from a re-analysis of the deposited data

How the results depend on the processing

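Alternatives were DESeq2, size factors by RLE or by library totals, filters set to none or to a mean of 20 counts, downsampling to the smallest library, a block by replicate number, windows of 0 and 10 kb, each other deletion alone, no fold change minimum, only the Wnt6 and Hmx1 libraries, and each library left out. Of 374 alternative values, 354 were counted as the same, 20 as moved, and 0 changed the direction of a call. Most fold changes and percentages counted as the same when they stayed within the spread between replicates. The Wnt6 against Hmx1 value of the leading Peg13 peak counted as the same while it kept its sign and was not called. Counts of members had a wider margin, so that 2 and 3 calls counted as the same. A peak could also cross the threshold for a call and count as the same. In the Hoxa deletion 2 members were called lower in each case except downsampling, where 3 were (with the Kcnk9 peak at 72504665). These calls are a description, since that contrast was used to choose the domain. No member was called between the Wnt6 and Hmx1 deletions. With 1 library left out, the log2 fold change of the leading Peg13 peak ranged from -5.15 to -3.66. The extremes came without replicate 3 and replicate 2 of the Hoxa deletion, respectively. It was also -5.15 with the replicate block. Replicate number 3 exists only in the Hoxa deletion, so for this contrast the block in effect leaves that library out again. Other alternatives lay between -4.27 and -4.20. Deviations of same-numbered libraries from their group gave 6 correlations from -0.04 to 0.08, and not every library correlated best with its own number. These values are not independent, because with 2 libraries in a group the deviations mirror each other. They cannot decide whether same-numbered libraries share an effect. Library totals did differ by number, with 6016500 to 9982841 counts in the replicate 1 libraries and 25595584 to 36563541 in the replicate 2 libraries. The block moved the calls over all peaks from 1153 to 1070 for the Hoxa deletion and from 66 to 67 for Wnt6 against Hmx1. The median over the members in the Hoxa deletion, the Peg13 peaks included, was -0.27 in the main setting. With a window of 0 kb it was -0.43 and with 10 kb -0.41, both counted as moved. The member median of Wnt6 against Hmx1 lay between -0.015 and 0.11 with 1 library left out. The lower extreme came without replicate 2 of the Wnt6 deletion, and the median reached 0.15 otherwise. The level of the 5 weaker Kcnk9 peaks stayed between 70.4% and 75.1%. Where the groups leave only 2 to 14 counts in a Peg13 peak, counting error limits how exactly the remainder is known.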
